A study of Homo sapiens with 6 samples.

Results

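The genes described here are 10 long noncoding RNAs that carry small nucleolar RNAs (snoRNAs) in their introns: SNHG1, SNHG5, SNHG6, SNHG7, SNHG8, SNHG12, SNHG15, SNHG16, GAS5 and ZFAS1. They were taken by name from the 25528 gene symbols of the expression table, and all 10 were found. Their measured values were not used to pick them, but earlier results of these data were known at the time. The samples were DU-145/tet-XISTshRNA cells, which are androgen-independent human prostate cancer cells that carry a doxycycline (DOX)-inducible short hairpin RNA against the long noncoding RNA XIST. All cells had been transduced and selected for growth in puromycin or geneticin. There were 3 samples treated with 0.1% DMSO as vehicle and 3 treated with 500 ng/ml DOX, and the comparison asks how gene expression differs when the hairpin is induced. DOX-treated cells without this hairpin were not analysed here, so DOX and the hairpin cannot be told apart. The labels name a single cell line with replicate numbers, and the study's methods describe triplicate cultures. Neither says whether the cultures were grown on separate days, so p-values measure the spread between these cultures only. Pooled cells or a clone are not named.

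snoRNAs are short RNAs that guide chemical modification of ribosomal RNA and spliceosomal RNA. Box C/D snoRNAs guide 2'-O-methylation and box H/ACA snoRNAs guide pseudouridylation. In vertebrates, nearly all snoRNAs are cut from the introns of host genes after splicing. Many hosts encode ribosomal or nucleolar proteins. In the hosts described here the introns hold the snoRNAs, whereas the spliced exons encode no long conserved protein. Transcripts of hosts of this kind can begin with a run of pyrimidines, as mRNAs of ribosomal proteins do, and several of them, GAS5 included, are translated briefly and then degraded by nonsense-mediated decay. GAS5 was named for its accumulation in growth-arrested cells, where translation, and with it this decay, is low. Several members, among them SNHG1, SNHG12, SNHG15 and SNHG16, have been described as elevated in tumors.

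RefSeq promoter sequences were found for 8 of the 10 members, all but SNHG6 and SNHG15. The stretch from 45 bases before to 20 bases from the start used in that promoter table is printed to let the starts be compared, in the direction of transcription on GRCh38.p14. For SNHG12 and ZFAS1 this start lies 1110 and 464 bases inside the RefSeq gene span, and for the other 6 members it is the edge of the span. For GAS5, on the minus strand, that edge at position 173869045 lies upstream of the GENCODE gene, whose span ends at 173868882. The GAS5 window thus lies outside the GENCODE gene, and starts within that gene were not searched. Capitals before the start mark the letters TATAA, and capitals around the start mark a C followed by at least 4 bases that are each C or T.
SNHG5: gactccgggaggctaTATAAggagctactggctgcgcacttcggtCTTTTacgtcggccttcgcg
SNHG7: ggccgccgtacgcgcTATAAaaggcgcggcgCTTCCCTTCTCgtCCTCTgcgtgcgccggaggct
SNHG8: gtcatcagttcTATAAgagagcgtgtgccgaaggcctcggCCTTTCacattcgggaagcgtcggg
SNHG12: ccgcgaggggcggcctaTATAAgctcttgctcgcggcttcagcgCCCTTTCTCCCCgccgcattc
ZFAS1: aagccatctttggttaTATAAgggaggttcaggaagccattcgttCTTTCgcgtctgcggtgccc
SNHG16: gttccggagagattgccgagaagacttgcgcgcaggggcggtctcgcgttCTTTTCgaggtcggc
SNHG1: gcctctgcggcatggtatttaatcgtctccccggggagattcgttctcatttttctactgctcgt
GAS5: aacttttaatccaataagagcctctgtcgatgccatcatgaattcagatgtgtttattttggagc

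The windows are, in the order shown, chr6:85678714-85678778, chr9:136728165-136728229, chr4:118278717-118278781, chr1:28581854-28581918, chr20:49278597-49278661, chr17:76557719-76557783, chr11:62855866-62855930 and chr1:173869026-173869090. TATAA was searched on both strands from 50 to 15 bases before the start and was present in 5 of the 8 members, beginning 28 to 34 bases before the start. The same letters were present in 5.35% of all 35116 RefSeq promoters of 300 bases. The pyrimidine run was searched on the gene's own strand within 15 bases either side of the start and was present in 6 of the 8 members and in 39.0% of all promoters. Both were present in the same 5 members and in 1.94% of all promoters. The SNHG12 and ZFAS1 windows at their inner starts are among these 5. These are matches of letters at annotated starts, and no promoter activity was measured. For GAS5 the lack of a match holds for its RefSeq start only.

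The values are TPM, which divides reads by gene length and sets every sample's total to 1000000. The library kit selects mRNA, yet 67.5% to 82.6% of the TPM in a sample was held by 5 RNA polymerase III transcripts, namely RN7SK, RPPH1 and the signal recognition particle RNAs RN7SL1, RN7SL2 and RN7SL3. The level of any other gene in TPM therefore depends on these RNAs, whose share ranged from 67.5% to 76.0% in vehicle and from 76.0% to 82.6% in DOX. A second scale, on which each sample was divided by its median ratio to the geometric mean over the samples, is given throughout and called scaled TPM. Reads counted on genes, recovered from the TPM and the authors' mean counts, ranged from 5453138 in vehicle replicate 3 to 64576407 in DOX replicate 1. XIST was listed at 0 in all 6 samples, as was EIF4A1, a translation initiation factor used by cells in general, so the silencing of XIST could not be checked here. The epithelial keratins KRT8, KRT18 and KRT19 ranged from 48.9 to 147 TPM, EPCAM from 8.57 to 21.4 TPM and CDH1 from 5.11 to 13.6 TPM, with log2 fold changes of -0.73 and -0.64 for EPCAM and CDH1 that were not called. KLK3 was at 0 in all 6 samples, as were CD3E and DCN among the 5 markers of other cell types, whereas PTPRC reached 0.0167 and PECAM1 0.0531 TPM, and COL1A1 was at 0.498 to 0.616 TPM in vehicle and 0.269 to 0.378 TPM in DOX.

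At the level of all genes, the median log2 fold change of DOX over vehicle was -0.35 on the TPM scale and 0.017 on the scaled one. With limma on log2(TPM + 1), 2.98% of the 11672 genes tested were called lower in DOX and 0.0257% higher, where a call required a fold change above 1.5 with an adjusted p below 0.05. Before adjustment, p was below 0.05 for 29.2% in the lower direction and 0.206% in the higher direction. On the scaled values, 0% of genes were called in either direction, and p before adjustment was below 0.05 for 7.75% (lower) and 8.12% (higher). A change in the members is thus given beside these values of all genes.

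The host genes were expressed over a wide range. SNHG6, the host of SNORD87, was the highest member in TPM. It was at 209, 215 and 259 TPM in vehicle replicates 1, 2 and 3 and at 155, 239 and 197 TPM in DOX replicates 1, 2 and 3. It was above the next member, SNHG16, in every sample. SNHG16, SNHG5, SNHG1 and GAS5 followed with vehicle means of 96.5 ± 25.1, 88.5 ± 9.86, 85.5 ± 24.9 and 74.2 ± 14.96 TPM (SD, n = 3). The ranges of each neighboring pair among these 4 genes overlapped in both groups. Within samples, SNHG16 was above GAS5 in all 3 vehicle samples, whereas SNHG5 was above SNHG16 in all 3 DOX samples by a log2 ratio of 0.32 ± 0.12 (SD, n = 3). GAS5 was above ZFAS1 in all 6 samples without overlap of the ranges. ZFAS1 and SNHG15 overlapped in vehicle, at 38.2 ± 6.13 and 35.5 ± 5.43 TPM (SD, n = 3), whereas in DOX the ZFAS1 samples were all above the SNHG15 samples. SNHG8 (21.3 ± 2.69 TPM in vehicle), SNHG7 (11.3 ± 2.90 TPM) and SNHG12 (0.809 ± 0.123 TPM) completed the order (SD, n = 3).

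**Figure D1:**
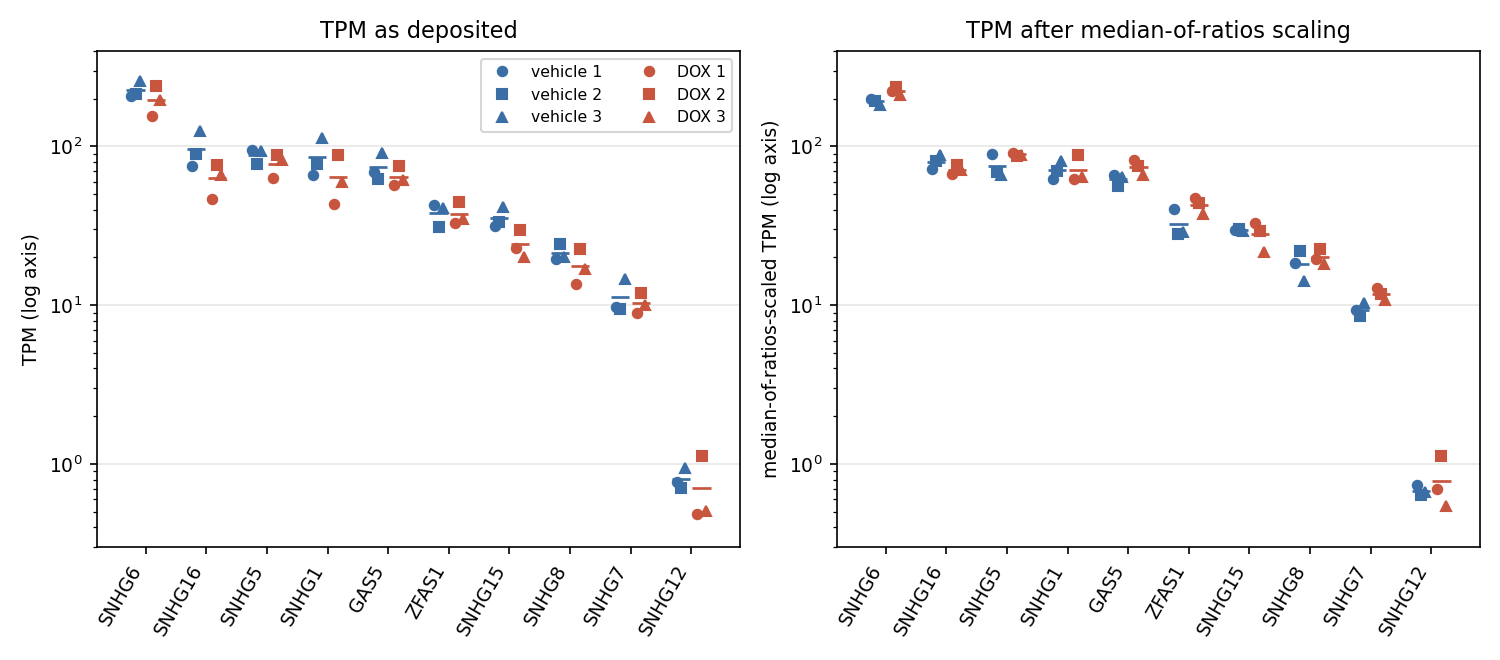
Level of the 10 host genes in each sample as deposited TPM (left) and after median-of-ratios scaling (right), on log axes, with vehicle in blue, DOX in red, marker shapes for replicates 1 to 3 and a bar at the group mean. SNHG6 is the highest and SNHG12 the lowest member in every sample on both scales, and the spread among vehicle samples of SNHG6 is narrower on the right.

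The order by reads was not the order by length-corrected level. The gene length recovered from the table was 12.5 times that of SNHG6 for SNHG16, 13.2 times for SNHG7 and 10.2 times for SNHG12. SNHG16 therefore had the most reads of the 10 genes, from 1608 in vehicle replicate 3 to 15458 in DOX replicate 1, against 269 to 4120 for SNHG6. SNHG12 had from 10 to 131 reads. SNHG8 had from 38 to 660, and its value in vehicle replicate 3 rests on 38 reads.

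On the TPM scale, the 9 members tested all had a fold change below 0, at a median of -0.22, and 0 were called lower or higher. Among all genes only 6.90% had a value above 0 on this scale. Their median was above the -0.35 of all genes. With GC content and length corrected, the medians were -0.31 and -0.35, and SNHG7 moved from -0.11 to -0.42. Only SNHG16 had a p below 0.05 before adjustment, against the 29.2% of all genes in this direction. On the scaled values the direction turned for 7 of the 9, with a median of 0.22 against 0.017 for all genes and again 0 members called. Values above 0 were found for 7 of the 9 members and for 52.9% of all genes. On this scale SNHG7 and ZFAS1 had a p below 0.05 before adjustment, both in the higher direction.

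**Figure D2:**
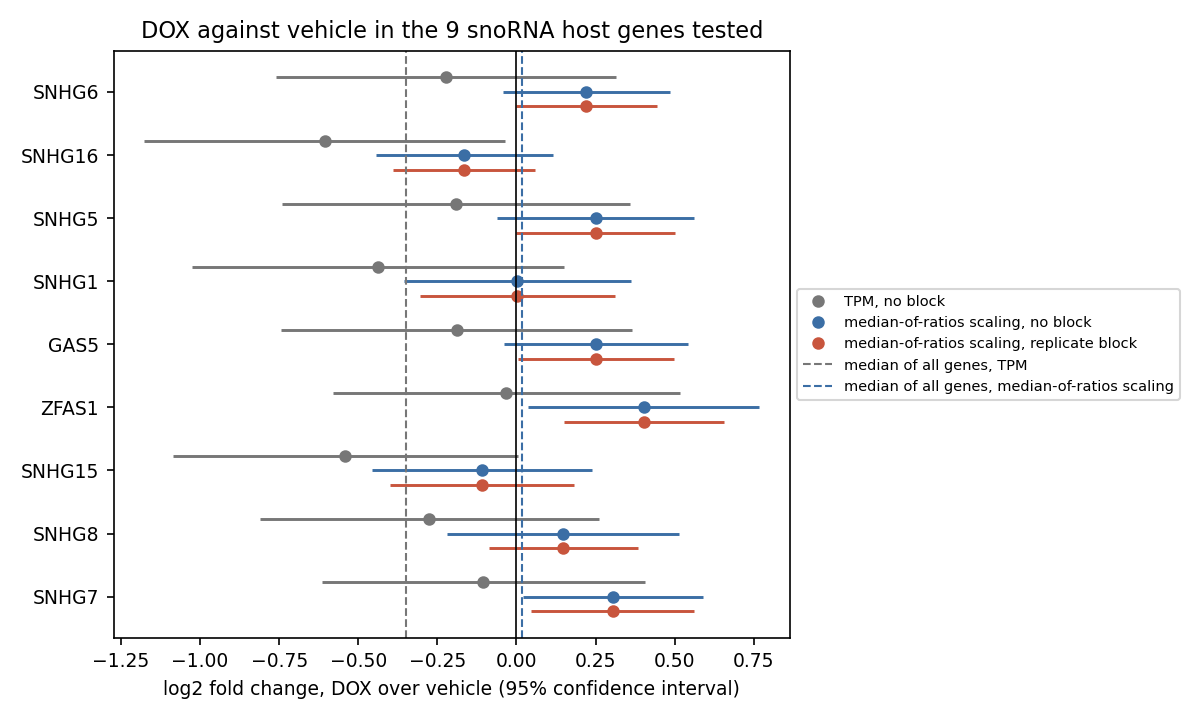
Fitted log2 fold change of DOX over vehicle with its 95% confidence interval for the 9 host genes tested, from limma on TPM (gray), on scaled TPM (blue) and on scaled TPM with the replicate number as a block (red). Dashed lines mark the medians of all genes tested, -0.35 for TPM and 0.017 for scaled TPM, and SNHG16 and SNHG15 are the members with a scaled value below 0.

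SNHG16, which hosts the box C/D snoRNAs SNORD1A, SNORD1B and SNORD1C, had the lowest fold change among the members on both scales. It was at 75.7, 89.4 and 124 TPM in vehicle and at 46.6, 76.4 and 65.9 TPM in DOX. The highest DOX sample lay just above the lowest vehicle sample. The log2 fold change was -0.61 ± 0.28 (SE, adjusted p = 0.149, limma). Fitting the replicate number as a block gave an adjusted p of 0.0141, at which SNHG16 was called lower together with 19% of all genes, with 0.129% called higher. On the scaled values SNHG16 was at 72.0, 80.5 and 88.0 in vehicle and 67.1, 76.0 and 70.9 in DOX, with a log2 fold change of -0.16 ± 0.13 (SE, adjusted p = 0.500, limma).

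SNHG15, the host of SNORA9, was the only member whose DOX samples were all below its vehicle samples in TPM, which 30.7% of all genes shared. It was at 31.4, 33.5 and 41.7 TPM in vehicle and 22.9, 29.7 and 20.1 TPM in DOX, a log2 fold change of -0.54 ± 0.27 (SE, adjusted p = 0.172, limma). The scaled values were nearly equal in vehicle, at 29.8, 30.2 and 29.5, and were 32.9, 29.5 and 21.6 in DOX. Thus, on this scale DOX replicate 3 was below every other sample and DOX replicate 1 above every other. The scaled log2 fold change of -0.11 became 0.062 when DOX replicate 3 was left out. After correction of the TPM for GC content and length, with the block, SNHG15 and SNHG16 were both called lower (log2 fold change -0.70 and -0.67, adjusted p = 0.00703 and 0.0111, limma), as were 8.93% of all genes, with 0.0357% called higher.

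SNHG1, the host with 9 annotated snoRNAs, was at 65.8, 77.3 and 114 TPM in vehicle and 43.4, 88.4 and 59.8 TPM in DOX. Its samples overlapped on both scales. The log2 fold change was -0.44 ± 0.29 on TPM (SE, adjusted p = 0.287, limma) and 0.0024 ± 0.16 on scaled values (SE, adjusted p = 0.995, limma).

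GAS5, the growth arrest-associated host, was at 69.5, 62.2 and 91.0 TPM in vehicle and 56.9, 75.4 and 61.5 TPM in DOX. Its scaled values were 66.1, 56.0 and 64.4 in vehicle and 82.0, 74.9 and 66.1 in DOX. The lowest DOX sample and the highest vehicle sample were thus at the same level, and the other two DOX samples were above it. The scaled log2 fold change was 0.25 ± 0.13 (SE, adjusted p = 0.353, limma), and that on TPM was -0.19 (adjusted p = 0.618).

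ZFAS1, which is transcribed from the ZNFX1 promoter region in the opposite direction, carries SNORD12, SNORD12B and SNORD12C. It was at 42.7, 31.3 and 40.7 TPM in vehicle and 32.9, 44.5 and 34.7 TPM in DOX, with a log2 fold change of -0.033 ± 0.27 (SE, adjusted p = 0.933, limma). On the scaled values it was at 40.7, 28.2 and 28.9 in vehicle and 47.3, 44.2 and 37.3 in DOX. Vehicle replicate 1 lay above the lowest DOX sample, so the groups overlapped. ZFAS1 had the largest scaled log2 fold change of the members, 0.40 ± 0.16 (SE, unadjusted p = 0.0340, adjusted p = 0.290, limma). Leaving out 1 sample at a time gave values from 0.31, without vehicle replicate 2, to 0.57, without vehicle replicate 1.

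SNHG7, which hosts SNORA17A and SNORA17B, and SNHG6 were the 2 members whose DOX samples were all above their vehicle samples on the scaled values, which was the case for 10.9% of all genes. No member had all DOX samples below all vehicle samples on this scale, against 9.15% of all genes. SNHG7 was at 9.32, 8.52 and 10.4 in vehicle and 12.9, 11.8 and 10.9 in DOX (log2 fold change 0.30 ± 0.13 SE, unadjusted p = 0.0385, adjusted p = 0.296, limma). SNHG6 was at 199, 194 and 183 in vehicle and 223, 237 and 212 in DOX (log2 fold change 0.22 ± 0.12 SE, adjusted p = 0.362, limma). In TPM both genes overlapped between the groups, at log2 fold changes of -0.11 (SNHG7, adjusted p = 0.767, limma) and -0.22 (SNHG6, adjusted p = 0.541). SNHG7 was at 9.80, 9.46 and 14.6 in vehicle and 8.94, 11.9 and 10.1 in DOX. SNHG7 has the highest GC content of the members in its canonical transcript, 65.9% against 39.0% to 54.8% for the others. With GC content and length corrected on the scaled values, and the replicate block, its log2 fold change was 0.021, whereas SNHG6 was at 0.23 and ZFAS1 at 0.32. In that fit 0% of all genes were called. Before adjustment p was below 0.05 for SNHG6 and ZFAS1 in the higher direction, against 7.1% of all genes, and for SNHG15 and SNHG16 in the lower direction, against 5.92%.

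SNHG5 hosts SNORD50A and SNORD50B and was at 94.7, 77.1 and 93.7 TPM in vehicle and 63.5, 87.7 and 82.3 TPM in DOX. Its scaled values in DOX lay close together at 91.4, 87.1 and 88.5, against 90.1, 69.5 and 66.4 in vehicle. Vehicle replicate 1 was among the DOX samples. The scaled log2 fold change was 0.25 ± 0.14 (SE, adjusted p = 0.378, limma), and it was 0.39 without vehicle replicate 1. In TPM it was -0.19 (adjusted p = 0.613). SNHG8, the host of SNORA24, was at 19.5, 24.4 and 20.1 TPM in vehicle and 13.7, 22.6 and 16.9 TPM in DOX. Its groups overlapped on both scales. The log2 fold change was -0.27 on TPM (adjusted p = 0.453, limma), and the scaled log2 fold change of 0.15 became -0.012 without vehicle replicate 3.

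SNHG12 was under the minimum mean of 1 TPM and was not part of the fit. It was at 0.776, 0.705 and 0.945 TPM in vehicle and 0.483, 1.13 and 0.508 TPM in DOX. DOX replicate 2 was the highest sample and DOX replicate 1 the lowest. The difference in mean log2(TPM + 1) was -0.10 on TPM and 0.076 on the scaled values (for TPM, exact two-sided permutation test, p = 0.6, n = 3 per group), where 0.1 is the smallest p that 3 against 3 samples allow.

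With the replicate number as a block on the scaled values, ZFAS1, SNHG7 and GAS5 had a p below 0.05 before adjustment, against 15.4% of all genes in the higher direction and 13.9% in the lower. Their adjusted p-values were 0.0754, 0.123 and 0.165, and 0 members were called. In a voom fit of the recovered reads with this block, 1.46% of genes were called higher and 2.24% lower. ZFAS1 and SNHG7 had the lowest adjusted p among the members, at log2 fold changes of 0.41 and 0.37 (adjusted p = 0.0501 and 0.0617). Both fold changes were below the 1.5 that a call required.

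The members were not all on one side of vehicle in any DOX sample. Relative to each gene's vehicle mean on the scaled values, 7, 7 and 6 of the 9 members were higher in DOX replicates 1, 2 and 3, by a median log2 difference of 0.22, 0.30 and 0.091. In vehicle replicates 1, 2 and 3 the counts were 5, 4 and 4. SNHG16 was below its vehicle mean in all 3 DOX samples, whereas SNHG5, SNHG6, SNHG7, SNHG8, GAS5 and ZFAS1 were above theirs in all 3. SNHG1 was above in DOX replicate 2 only and SNHG15 in DOX replicate 1 only.

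**Figure D3:**
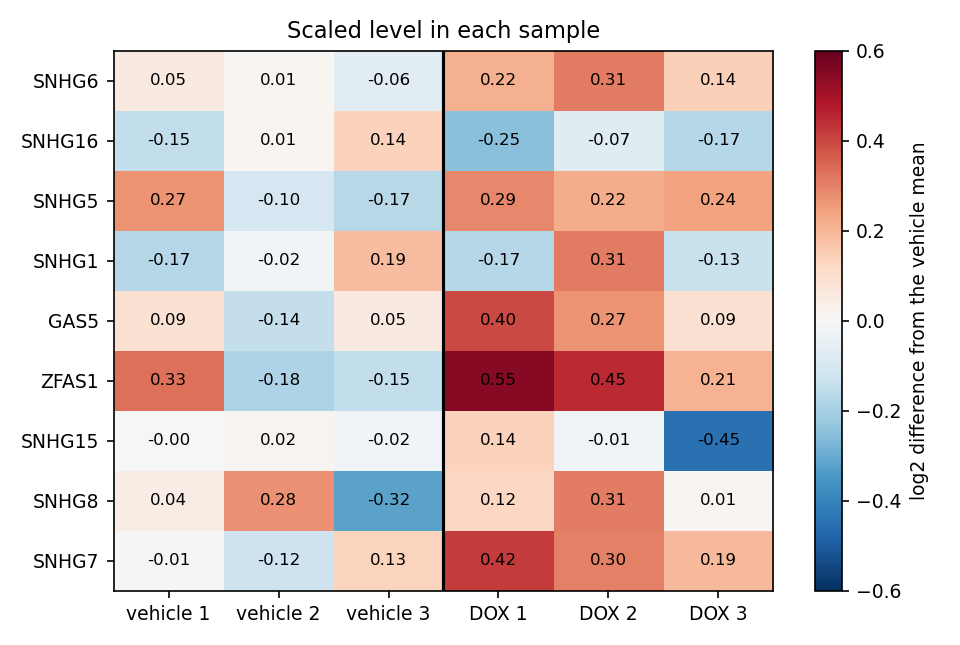
Difference of each scaled log2 level from the gene's own vehicle mean, for the 9 host genes tested (rows) in the 6 samples (columns), with values printed in the cells and red for higher. ZFAS1 in DOX replicate 1 (0.55) and SNHG15 in DOX replicate 3 (-0.45) are the furthest from the vehicle mean in each direction.

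Ratios between members within a sample do not depend on the scaling. Of the 36 pairs of tested members, 7 had log2 ratios that did not overlap between vehicle and DOX, which is 19.4% and near the 19.8% of all pairs of genes tested. SNHG15 was the relatively lower gene in 4 of these pairs and SNHG16 in the other 3. SNHG6 over SNHG16 gave log2 ratios of 1.46, 1.26 and 1.06 in vehicle and 1.73, 1.64 and 1.58 in DOX. The ratio of ZFAS1 to SNHG15 was 0.45, -0.10 and -0.033 in vehicle and 0.52, 0.58 and 0.79 in DOX. Each of these had an exact two-sided permutation p of 0.1, the smallest possible, before any adjustment over the pairs.

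The snoRNAs themselves were followed as far as the files allow. RefSeq places 37 snoRNA genes inside the 10 hosts, 28 of the box C/D and 8 of the box H/ACA type by name, with 11 in GAS5 and 9 in SNHG1. The TPM table holds 0 of them, so no value per sample or comparison between the groups is given here. The authors' table gives a mean of normalized counts over all 6 samples for 31, from 0.0908 (SNORD75) to 84.7 (SNORD80), with a median of 10.96. The highest snoRNA of each of 5 hosts is printed 5' to 3' on GRCh38, with box C (TGATGA) and box D (CTGA) of the C/D type or the ACA near the 3' end of the H/ACA type in capitals.
SNORD80: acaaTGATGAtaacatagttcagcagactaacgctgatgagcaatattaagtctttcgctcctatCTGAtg
SNORA9: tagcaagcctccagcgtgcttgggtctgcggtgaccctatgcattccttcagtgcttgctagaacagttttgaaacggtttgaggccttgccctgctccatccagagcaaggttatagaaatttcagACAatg
SNORD31: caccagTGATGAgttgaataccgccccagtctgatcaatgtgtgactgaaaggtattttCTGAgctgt
SNORA16A: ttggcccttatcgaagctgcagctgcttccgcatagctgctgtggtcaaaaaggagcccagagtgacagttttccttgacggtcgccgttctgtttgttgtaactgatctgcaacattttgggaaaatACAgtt
SNORD12B: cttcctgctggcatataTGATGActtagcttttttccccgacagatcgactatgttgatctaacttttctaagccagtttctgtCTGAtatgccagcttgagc

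SNORD80 lies in GAS5 at chr1:173864833-173864903 and had an authors' mean of 84.7. SNORA9 lies in SNHG15 at chr7:44985378-44985510, with a mean of 84.3. SNORD31 (SNHG1, chr11:62853326-62853393) had a mean of 40.1, SNORA16A (SNHG12, chr1:28580920-28581053) of 30.9 and SNORD12B (ZFAS1, chr20:49280313-49280415) of 20.7. SNORD12B is on the plus strand and the other 4 are on the minus strand. The snoRNAs of a host did not share a level, since those of GAS5 ranged from 0.0908 to 84.7 although they come from the introns of the same gene. The summed means of the snoRNAs were 25.6% of the mean of the host for GAS5, 20.4% for SNHG15, 7.71% for SNHG1 and 0.423% for SNHG16. For SNHG12 they came to 91.6%, of a host mean of 37.6. These are pooled values of the authors with no error, they are not corrected for length, and mRNA selection does not capture mature snoRNAs in proportion to their abundance.

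**Figure D4:**
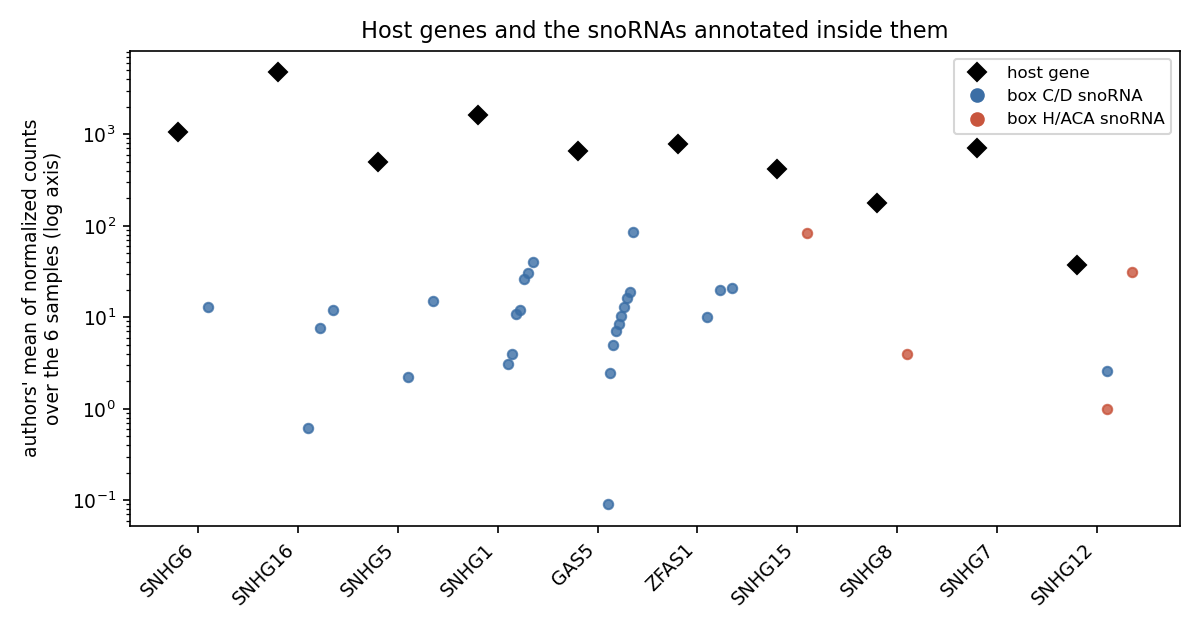
The authors' mean of normalized counts over the 6 samples, on a log axis, for each host gene (black diamonds) and for the snoRNAs annotated inside it (blue for box C/D, red for box H/ACA). SNORD80 of GAS5 and SNORA9 of SNHG15 are the highest at 84.7 and 84.3, and every snoRNA with a value is below its host.

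Genes of the same processes were compared with the hosts. Of 20 other noncoding snoRNA hosts, 16 were in the table and 13 were tested, and 0 were called in either direction, with a scaled median of 0.11. SNHG19 had the highest scaled log2 fold change, 0.70 (adjusted p = 0.281, limma), followed by SNHG17 at 0.45, and SNHG21 the lowest, -0.40, next to SNHG14 at -0.22. SNHG21 was called lower in TPM with the replicate block, with and without correction for GC content and length (adjusted p = 0.0103 and 0.00149, limma). In these fits 8.93% and 19% of all genes were called lower. Among protein-coding hosts, many of which encode ribosomal proteins, 0 of 32 were called. Their scaled median of 0.23 was close to the 0.22 of the noncoding members, with 27 of 32 above 0. RPL10 and RPS3 had the highest values, 0.48 and 0.44, and the nucleolar protein NCL and TAF1D, a subunit of an RNA polymerase I factor, the lowest, both at -0.11.

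The core snoRNP proteins and their assembly factors, which bind snoRNAs and are needed for their stability, had 0 of 18 genes called and a scaled median of 0.12. By fold change in TPM, the ATPases RUVBL2 and RUVBL1 of snoRNP assembly were highest and RPAP3 and ZNHIT6 lowest. The scaled log2 fold changes were 0.65 for RUVBL2 (adjusted p = 0.268, limma), 0.45 for RUVBL1, -0.21 for RPAP3 and -0.20 for ZNHIT6, and FBL, the methyltransferase of box C/D snoRNPs, was at 0.49. With the replicate block on TPM, RPAP3 was called lower (adjusted p = 0.0122, limma), as were 19% of all genes. With voom and the block RUVBL2 was called higher (log2 fold change 0.67, adjusted p = 0.0127), as were 1.46% of all genes. For the factors of nonsense-mediated decay, 0 of 14 were called and the scaled median was 0.070. The helicase UPF1 was at 0.36 and EIF4A3 of the exon junction complex at 0.34, whereas the kinase SMG1 was at -0.40 and UPF2 at -0.35. With the block on TPM, SMG1 and UPF2 were called lower (log2 fold change -0.81 and -0.75, adjusted p = 0.000900 and 0.00201, limma), among the 19% of all genes.

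Of 7 regulators of growth and of mRNAs with a 5' pyrimidine run, 2 were called lower in TPM, against 2.98% of all genes. RICTOR, a subunit of mTOR complex 2, was at 23.4, 30.5 and 37.8 TPM in vehicle and 8.06, 19.1 and 14.9 TPM in DOX (log2 fold change -1.12, adjusted p = 0.0343, limma). RPS6KB1, the ribosomal protein S6 kinase, was at 18.2, 24.5 and 30.1 TPM in vehicle and 7.90, 16.1 and 12.0 TPM in DOX (log2 fold change -0.98, adjusted p = 0.0452, limma). Vehicle and DOX samples did not overlap for these 2 genes, as for 30.7% of all genes. On the scaled values they were not called, at -0.70 and -0.56 (adjusted p = 0.268 and 0.280), whereas with voom and the block both were (adjusted p = 0.00653 and 0.0110). Neither was called with a pseudocount of 0.1, no minimum, no variance trend, TPM without the small RNAs, voom without the block or GC content and length corrected without the block, or when vehicle replicate 2, vehicle replicate 3 or DOX replicate 1 was left out. Without DOX replicate 3, RICTOR alone was called.

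**Figure D5:**
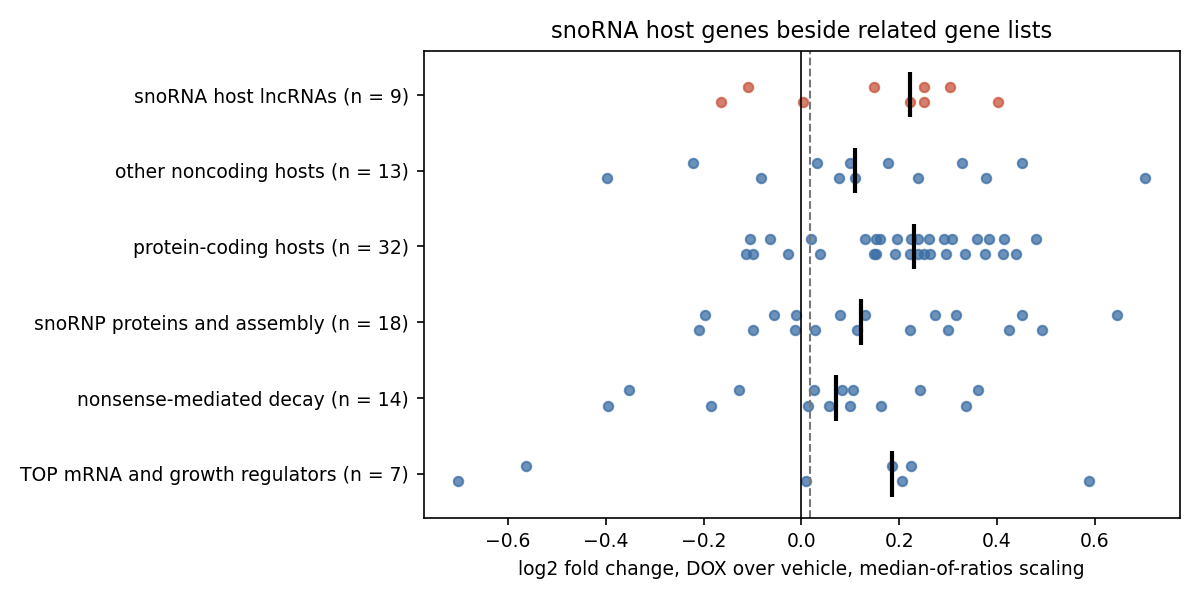
Log2 fold change of DOX over vehicle on scaled TPM for each tested gene (points) of the snoRNA host long noncoding RNAs (red) and of 5 related lists (blue), with thick black bars at list medians and a dashed line at the median of all genes, 0.017. The medians range from 0.070 for nonsense-mediated decay to 0.23 for protein-coding hosts, and RICTOR and RPS6KB1 are the points at -0.70 and -0.56 in the bottom row.

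By the pattern over the 6 samples on the scaled values, CCDC86, TGIF2, TACC3, NFKB1 and SMTN were the genes most like the mean of the 9 members, with Pearson r from 0.990 to 0.998 (n = 6). They are the extreme of 11595 genes measured in the same few libraries, and r is given as a description. The mean stands for some members more than for others, since r with the mean of the other 8 was 0.88 for SNHG6 and 0.82 for GAS5 but 0.16 for SNHG15, 0.012 for SNHG1 and -0.63 for SNHG16.

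The genes lie on different chromosomes, apart from GAS5 and SNHG12, which are both on chromosome 1. By RefSeq on GRCh38.p14 they span chr11:62851978-62855885 (SNHG1), chr6:85677007-85678733 (SNHG5), chr8:66921690-66925541 (SNHG6), chr9:136724594-136728184 (SNHG7), chr4:118278762-118279823 (SNHG8), chr1:28578538-28582983 (SNHG12), chr7:44983023-44986696 (SNHG15), chr17:76557764-76565348 (SNHG16), chr1:173863901-173869045 (GAS5) and chr20:49278178-49289260 (ZFAS1). SNHG8, SNHG16 and ZFAS1 are on the plus strand and the other members are on the minus strand.

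Several members share exonic bases with another gene by GENCODE release 44. On the opposite strand these include MCMDC2 for SNHG6 (1488 bases), DIPK1B for SNHG7 (1482), PRSS12 for SNHG8 (2487), ZNFX1 for ZFAS1 (249) and GAS5-AS1 for GAS5 (132). For SNHG5, an overlapping pseudogene, PKMP3, lies on the same strand (715 bases). The kit keeps strand, but the strand setting of the counting is not given in the sources used here, so reads of these genes and of the hosts may not be fully separated.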

How the data were processed

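RNA was measured by stranded mRNA-seq in 3 vehicle and 3 DOX samples, grouped by their labels. The authors used STAR with GRCh38, and the values they deposited are TPM by gene symbol. The counting tool and the versions of STAR and DESeq2 are not given in the sources used here. The authors' DESeq2 table was used only for its mean of normalized counts, a pooled signal deposited without values per sample; its fold changes and p-values were not used. The snoRNA host genes and all lists were chosen with earlier results of these data known.

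Genes averaging 1 TPM or more (11672) were tested on log2(TPM + 1) with limma 3.58.1 (R 4.3.3, eBayes with trend) and Benjamini-Hochberg adjustment over all of them; log2 fold changes on this scale understate those of low genes. The scaled values left 11595 genes. The members were all named; from each list the called genes were named, or else the 2 highest and 2 lowest by fold change. Other splits and set tests were not run. Alternatives were median-of-ratios scaling, pseudocount 0.1, other minimums, no trend, TPM without the 5 small RNAs, correction for GC content and length (a spline with 5 degrees of freedom; 95.9% of tested symbols had a value), the replicate block and voom.

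Reads were recovered from TPM and the authors' mean: 96.4% to 99.9% of values under 20 reads were whole within 0.05. Voom on them called 0 genes higher and 1 lower without the block. On simulated data, limma recovered 150 of 200 genes changed 2-fold (75.0%), with 15 false calls among 11649 genes. The simulation held no replicate effect and no shift shared by all genes. It therefore does not give the power or the false calls of the fit on the real TPM. On simulated reads the recovery was exact for 100% of 18868 genes.

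Replicate numbers are shared by the groups. After the group means were subtracted, samples sharing number 1, 2 or 3 correlated with r of 0.57, 0.24 and 0.21 in TPM. Samples with different numbers had r from -0.38 to 0.19, the highest for vehicle replicate 2 with DOX replicate 3. On the scaled values that pair had r of 0.22, above the 0.19 of the samples sharing number 3. After GC and length correction r of samples sharing a number was 0.15, -0.01 and 0.16. The pairing rests on these values alone, and they do not clearly separate numbers 2 and 3. Sequences came from RefSeq (GRCh38.p14) and the GRCh38 genome; Python 3.11.15 and SciPy 1.17.1 were used.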

Additional observations from a re-analysis of the deposited data

How the results depend on the processing

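Whether the host genes sat above or below vehicle depended on the scaling of the samples. Under median-of-ratios scaling, with or without the replicate block, the median log2 fold change of the members was 0.22 and that of all genes 0.017, and 0 genes were called lower or higher. The values were 0.0024 (SNHG1), 0.25 (SNHG5), 0.22 (SNHG6), 0.30 (SNHG7), 0.15 (SNHG8), 0.25 (GAS5) and 0.40 (ZFAS1), all of the opposite sign to TPM, and SNHG16 and SNHG15 stayed below 0. With TPM recomputed without the 5 small RNAs the medians were 0.13 and -0.056, with 1 gene called lower and 0 higher, and the values were 0.16 (SNHG5), 0.13 (SNHG6), 0.22 (SNHG7), 0.063 (SNHG8), 0.16 (GAS5) and 0.32 (ZFAS1). With voom on recovered reads the medians were 0.21 and 0.019, with 1 gene called lower and 0 higher, and the values were 0.016 (SNHG1), 0.23 (SNHG5), 0.21 (SNHG6), 0.37 (SNHG7), 0.064 (SNHG8), 0.28 (GAS5) and 0.40 (ZFAS1). With the block added to voom, the medians were 0.21 and 0.015, 170 genes were called higher and 261 lower, and the values were 0.031 (SNHG1), 0.21 (SNHG5), 0.22 (SNHG6), 0.37 (SNHG7), 0.099 (SNHG8), 0.29 (GAS5) and 0.41 (ZFAS1).

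The replicate block on TPM called 1 member (SNHG16) and 2217 genes lower and 15 genes higher, and with GC content and length corrected as well it called 2 members (SNHG15 and SNHG16) and 1000 genes lower and 4 genes higher. The block changed no other member's call, and its calls in the related lists stand beside them in the results. Leaving out DOX replicate 2 called 2 other noncoding hosts, 2 protein-coding hosts, 2 snoRNP genes and 3 decay factors lower. In that setting 2363 of the 11672 genes were called lower. Leaving out vehicle replicate 1 called 1 other noncoding host and 2 decay factors lower, beside 1257 of all genes. A minimum of 5 TPM called 1 decay factor lower, beside 633 of all genes. Without these changes 0 had been called in these lists. In the combination of median-of-ratios scaling, GC and length correction and the block, chosen after the data were seen, 0 genes were called lower or higher, the median of the members was 0.12 and that of all genes 0.027, and the values were -0.025 (SNHG1), -0.28 (SNHG15), -0.23 (SNHG16), 0.12 (SNHG5), 0.23 (SNHG6), 0.021 (SNHG7), 0.20 (SNHG8), 0.14 (GAS5) and 0.32 (ZFAS1). All genes called lower numbered 46 with a pseudocount of 0.1, 633 with a minimum of 5 TPM, 8 without the variance trend and 0 without a minimum. Genes called higher numbered 1 with GC and length corrected, 0 without a minimum and 0 without the trend. The members called stayed at 0 in these settings.

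Leaving out 1 sample at a time on TPM, 0 to 2363 genes were called lower and 0 to 25 higher, with the most lower calls without DOX replicate 2 and the fewest without vehicle replicate 3, and 0 members. The members' median ranged from -0.37 to -0.10 and that of all genes from -0.43 to -0.22. SNHG7 ranged from -0.21 to 0.081 and ZFAS1 from -0.17 to 0.052, and the others from -0.70 to -0.19 (SNHG1), -0.29 to -0.052 (SNHG5), -0.37 to -0.061 (SNHG6), -0.46 to -0.11 (SNHG8), -0.69 to -0.42 (SNHG15), -0.76 to -0.41 (SNHG16) and -0.31 to -0.035 (GAS5). Leaving out samples on the scaled values, chosen after the data were seen, gave 0 to 1 genes lower and 0 to 13 higher, and medians of 0.17 to 0.26 for the members and 0.0027 to 0.027 for all genes. The ranges there were -0.15 to 0.096 (SNHG1), 0.17 to 0.39 (SNHG5), 0.18 to 0.26 (SNHG6), 0.24 to 0.37 (SNHG7), -0.012 to 0.29 (SNHG8), -0.23 to 0.062 (SNHG15), -0.24 to -0.096 (SNHG16, the latter without vehicle replicate 3), 0.18 to 0.33 (GAS5) and 0.31 to 0.57 (ZFAS1). SNHG12 was at -0.10 in TPM and 0.076 on the scaled values. The planned values per sample for snoRNAs were not run, since the TPM table holds none of them. Depth was least in vehicle replicate 3, where SNHG12 had 10 reads and SNHG8 38.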
